A study of Mus musculus with 288 samples.

Results

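The genes described here encode 9 nuclear receptors of lipid, glucose and energy metabolism, namely Ppara, Ppard, Pparg, Rxra, Rxrg, Nr1h3, Esrra, Hnf4a and Nr2f2, out of 19938 genes measured. They were chosen by name, and each was read by the 1 probe set annotated to its symbol alone. The data are 288 Affymetrix arrays of total RNA from C57/BL6 mice, 24 arrays for each of 12 tissues. These were liver, kidney, adrenal gland, heart, aorta, skeletal muscle, lung, white and brown adipose, and the hypothalamus, brainstem and cerebellum of the brain. All mice had first lived in alternating 12 h of light and 12 h of dark and were then held in constant darkness, so no array is of a mouse in light. Sampling began at circadian time (CT) 18 and went on at steps of 2 h until CT64, with RNA of 3 mice pooled per array and no replicate at a time point. Circadian time counts hours from the start of the former light phase, when mice rest, so that times after CT12 belong to the active phase.

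Nuclear receptors are transcription factors that bind DNA and, in most cases, a small lipid-soluble ligand. The peroxisome proliferator-activated receptors (PPARs) and the liver X receptors bind DNA as partners of a retinoid X receptor (RXR), and respond to fatty acids and oxysterols, respectively. PPAR alpha drives fatty acid oxidation in the fasting liver, PPAR gamma makes and maintains fat cells, ERR alpha supports mitochondrial genes, and HNF4 alpha sets the identity of hepatocytes and of the kidney's proximal tubule.

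The deposited values are linear intensities, and log2 values are used throughout. The median of an array lay between 6.57 and 6.74, and the tissues appear to have been normalized apart, so levels between tissues are described without a test. Markers of the labelled tissue were checked, and hepatocyte markers averaged 13.38 in liver, kidney tubule markers 12.17 in kidney and adrenal cortex markers 12.49 in adrenal gland. By markers of other cell types or by correlation to their fellows, 20 arrays in 8 tissues stood apart. The largest such shifts were hepatocyte markers on the CT26 heart array (10.41, against a heart median of 6.38) and lung epithelium markers on the CT22 white adipose array (10.41, against 5.568).

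The promoter sequences that follow were read to show the DNA at the starts of Ppara and Ppard, the receptors with the widest and the largest daily waves, the contrast between starts of Pparg, and where a receptor-binding hexamer lay near a start. RefSeq (build GRCm38.p6) lists 15 promoters for the 9 genes, each a window of 300 bases, from 250 before to 50 after the start. The 100 bases before the start of Ppara (chr15:85735676-85735775, plus strand), of Ppard (chr17:28232654-28232753, plus strand) and of the first and last listed starts of Pparg (chr6:115361044-115361143 and chr6:115421966-115422065, plus strand) are given with CG pairs in capitals.
Ppara: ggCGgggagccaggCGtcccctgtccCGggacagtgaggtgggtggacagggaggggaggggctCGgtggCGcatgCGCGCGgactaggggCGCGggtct
Ppard: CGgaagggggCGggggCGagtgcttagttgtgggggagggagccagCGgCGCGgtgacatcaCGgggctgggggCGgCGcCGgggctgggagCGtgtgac
Pparg, first start: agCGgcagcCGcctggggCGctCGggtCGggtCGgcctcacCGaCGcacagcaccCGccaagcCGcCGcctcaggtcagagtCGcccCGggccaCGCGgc
Pparg, last start: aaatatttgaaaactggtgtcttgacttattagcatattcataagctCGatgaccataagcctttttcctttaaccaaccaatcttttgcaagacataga
The Ppara and Ppard stretches were both 76% G and C, with 10 and 11 CG pairs. The first Pparg stretch was 79% G and C with 15 CG pairs, while the last was 33% with 1. Over the whole window of 300 bases, Ppara was 74.7% G and C, Ppard 68.3%, and the first and last Pparg promoters 80.3% and 40.3%. The median of 32851 promoters over that window was 52.7%.

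On both strands of the windows of the 9 genes, no match was found to the E-box CACGTG (in 7.15% of all promoters), the D-box TTATGTAA (0.938%), the ROR element (AGGTCA after 6 bases of which at least 5 are A or T, 1.58%) or DR1 (AGGTCA repeated after 1 base, 0.0396%). The hexamer AGGTCA, which is also part of the last 2 of these motifs, lay 5 times in 4 promoters of 3 genes, and 16.3% of all promoters held it. The 4 plus-strand matches are shown with 30 bases on either side and the hexamer in capitals, at chr6:115361086-115361151 and chr6:115362310-115362375 for Pparg, chr2:27709214-27709279 for the second Rxra start and chr1:167618147-167618212 for the second Rxrg start.
Pparg, first start: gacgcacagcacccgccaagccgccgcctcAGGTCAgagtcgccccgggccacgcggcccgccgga
Pparg, second start: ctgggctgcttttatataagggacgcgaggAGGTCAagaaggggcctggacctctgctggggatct
Rxra: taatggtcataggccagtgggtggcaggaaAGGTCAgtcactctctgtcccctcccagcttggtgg
Rxrg: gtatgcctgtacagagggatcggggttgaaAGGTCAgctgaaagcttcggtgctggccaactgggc
These matches are letters in a window and describe no binding.

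A daily wave, a cosine with a period of 24 h, was fitted to the 24 arrays of each tissue with limma. A wave is called where its Benjamini-Hochberg adjusted p over all genes of that tissue is under 0.05. Since no time point has a replicate, these p-values set the size of the wave against the scatter of single pools around it. Of the 108 pairs of a receptor gene and a tissue, 27 (25%) were called, beside 11% of all pairs of a gene and a tissue. The median peak-to-trough fold was 1.11 for the receptors and 1.07 for all genes, and 4 of the 27 waves exceeded 1.5-fold. In all 27, the peaks fitted to the first and to the second 24 h lay within 4 h of each other. The calls came from 1 fit to both days together, so this agreement is no separate test.

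The count ran unevenly over tissues. In liver 6 of the 9 genes were called (26.8% of all genes were), in kidney 5 (25.8%), and in lung 3 (20.9%). Brown adipose had 3 (16.5%), heart 3 (8.64%) and white adipose 3 (4.85%). Aorta had 2 (5.09%), adrenal gland 1 (5.89%) and skeletal muscle 1 (5.12%). None was called in brainstem (4.78%), cerebellum (5.49%) or hypothalamus (1.8%). With 9 genes in a tissue these shares are coarse.

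**Figure D1:**
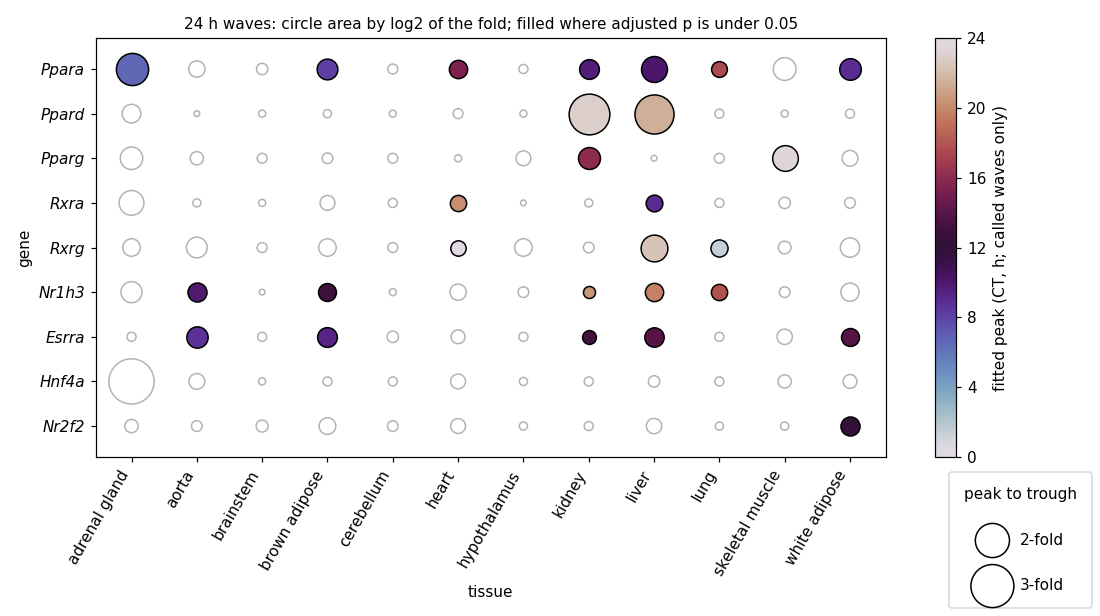
Fitted 24 h waves of the 9 receptor genes (rows) in 12 tissues (columns): circle area grows with the log2 of the peak-to-trough fold, and filled circles are called waves coloured by their peak in CT hours. The largest filled circles are Ppard in kidney (2.68-fold) and liver (2.48-fold), and the large open circle is Hnf4a in adrenal gland (3.37-fold, not called).

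Ppard (probe set 10443332, chr17:28232754-28301469) encodes PPAR delta, a fatty acid sensor of muscle and many other tissues. Its daily wave was large in kidney and liver, and in no other tissue was a wave called. In kidney the 24 arrays ran from 8.61 at CT34, with a median of 9.05, to 10.15 at CT48. The 6 arrays within 2 h of CT22 on either day lay between 9.58 and 10.15, and the 6 within 2 h of CT10 between 8.61 and 8.80, with no overlap. The fit placed these windows, here and for the other genes, so their separation is a description. In liver the arrays ran from 8.27 at CT34, with a median of 8.76, to 9.92 at CT22, and the same 2 sets of time points lay between 9.39 and 9.92 and between 8.27 and 8.67.

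The fitted wave of Ppard was 2.68-fold in kidney (95% interval 2.33 to 3.08), with a peak at CT22.9 (SE 0.262 h) and an adjusted p of 6.17e-11. In liver it was 2.48-fold (2.02 to 3.05), with a peak at CT21.5 (SE 0.421 h) and an adjusted p of 7.07e-07. Both peaks came in the second part of the active phase, 7.79 h and 9.47 h before the peak of Nr1d1, the clock repressor REV-ERB alpha, in the same tissue. The liver trace fell from 9.16 at CT26 to 8.34 at CT28 and from 9.33 at CT50 to 8.30 at CT52. The kidney trace stayed at 9.51 at CT28 on the first day and had fallen to 9.10 at CT52 on the second.

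In the other 10 tissues Ppard moved little. The adrenal wave was 1.23-fold (1.07 to 1.41, adjusted p = 0.151), and the remaining 9 lay between 1.02- and 1.06-fold. The upper bounds of those 9 intervals did not exceed 1.13. Skeletal muscle, where the mean of 9.45 ± 0.086 (SD, n = 24) was the highest of the 12, had a wave of 1.03-fold (1 to 1.11). Mean levels of Ppard spanned 1.22 log2 units over tissues, down to 8.23 ± 0.11 in hypothalamus, the narrowest span of the 9 genes. The ranges of all neighbours in its order of tissues overlapped.

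**Figure D2:**
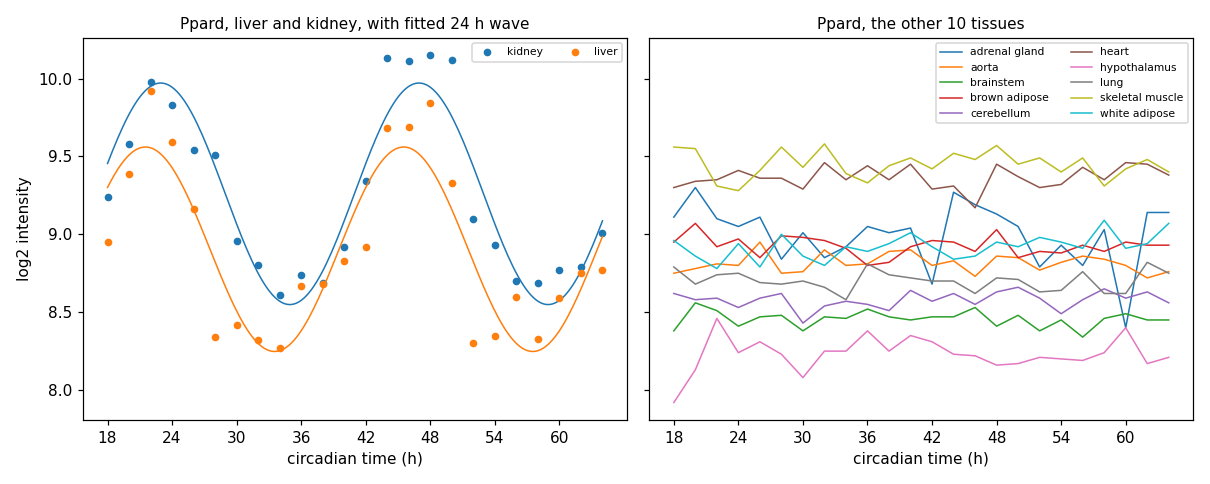
Log2 intensity of Ppard against circadian time, 1 array per point or vertex: left, liver and kidney with the fitted 24 h wave, right, the other 10 tissues joined by lines. Liver and kidney rose toward CT22 to CT24 and again toward CT46 to CT48, reaching 9.92 and 10.15, while the other tissues kept their own levels.

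Ppara (probe set 10425987, chr15:85734910-85806851) encodes PPAR alpha, the receptor that switches on fatty acid oxidation and ketone body synthesis. It was called in 7 of 12 tissues, more than any other of the 9 genes. In liver the arrays ran from 11.05 at CT24, with a median of 11.42, to 11.85 at CT54, and in brown adipose from 11.17 at CT42, with a median of 11.56, to 11.78 at CT56. In adrenal gland they ran from 7.77 at CT20, with a median of 8.31, to 9.27 at CT50. In each of the 7 tissues the 6 arrays around the fitted peak and the 6 around the fitted trough did not overlap.

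The liver wave of Ppara was 1.49-fold (1.35 to 1.65), with a peak at CT10.1 (SE 0.454 h, adjusted p = 2.24e-06). Kidney (1.26-fold, CT9.71), brown adipose (1.29-fold, CT8.15) and white adipose (1.32-fold, CT8.95) peaked at nearly the same hours, late in the rest phase. In heart the peak was at CT15.3 (1.22-fold, adjusted p = 0.000438) and in lung at CT17.5 (1.16-fold, adjusted p = 0.00743). The adrenal peak at CT6.55 was the earliest (1.85-fold, 1.42 to 2.42, adjusted p = 0.0122). Counted from the Nr1d1 peak of each tissue, Ppara came 3.09 h later in liver, 2.99 h in kidney, 1.24 h in brown adipose, 8.51 h in heart and 10.1 h in lung.

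Skeletal muscle had a Ppara wave of 1.36-fold (1.12 to 1.65) that was not called (adjusted p = 0.126). Aorta, with a mean of 10.64 ± 0.23, had 1.17-fold (1 to 1.38, adjusted p = 0.592). Fat cell markers on the aorta arrays averaged between 9.7 at CT46 and 10.17 at CT26. The part of fat cell content in the aorta level of Ppara was not tested. The mean level of Ppara was highest in brown adipose (11.53 ± 0.18) and liver (11.43 ± 0.24), whose ranges overlapped. The largest gap lay between kidney (10.04 ± 0.15) and adrenal gland (8.39 ± 0.46), with no overlap, and another between white adipose (7.87 ± 0.18) and brainstem (6.73 ± 0.07). Lung, at 6.46 ± 0.11, was among the 4 lowest tissues, and its called wave spanned values from 6.26 to 6.68. That mean lay below the array medians (6.57 at the lowest), so the probe set may not be above background in lung.

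**Figure D3:**
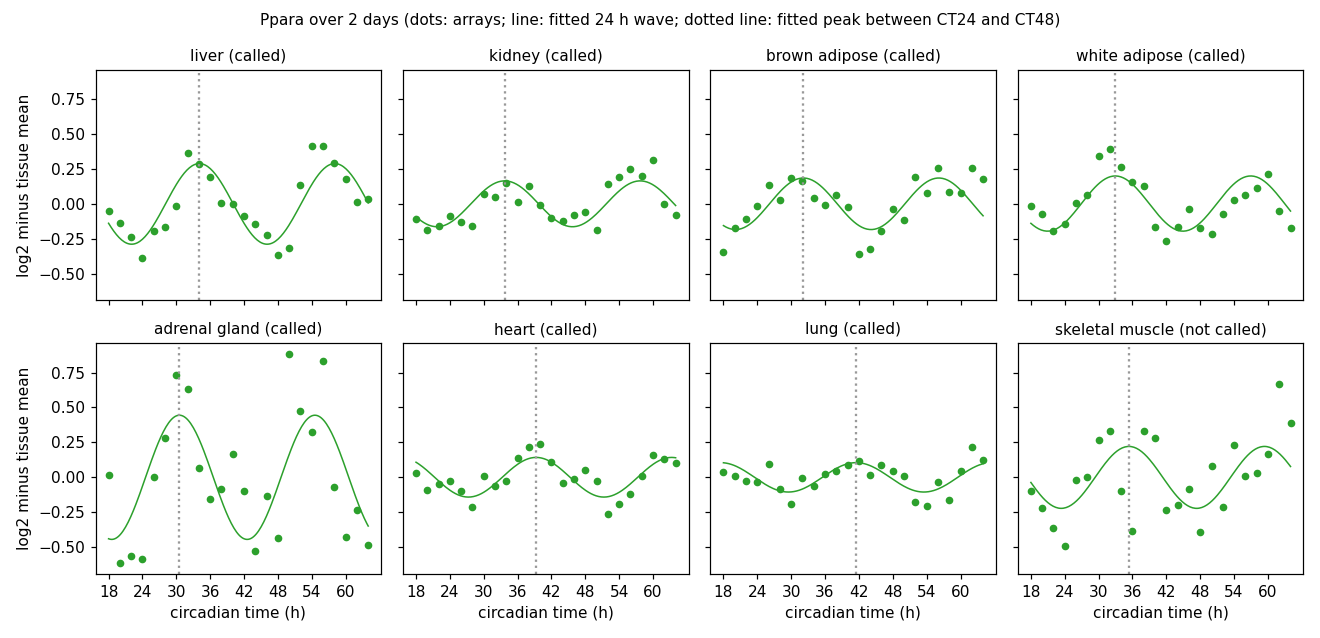
Ppara in 8 tissues: log2 intensity minus the tissue's mean against circadian time, with dots for arrays, the fitted 24 h wave as a line and its peak as a dotted line. Liver, kidney and both adipose tissues peaked between CT8.15 and CT10.1, and heart and lung at CT15.3 and CT17.5; skeletal muscle was not called.

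Pparg (probe set 10540897, chr6:115360879-115490404) encodes PPAR gamma, the receptor that directs fat cell formation and lipid storage. It was called in kidney and skeletal muscle and not in the tissues where its level was highest. Mean levels were 12.36 ± 0.074 in brown adipose, 11.68 ± 0.20 in white adipose and 11.55 ± 0.17 in aorta, a gap of 1.67 above the next tissue, adrenal gland at 9.88 ± 0.32. The brown adipose range lay wholly above that of white adipose, and the hypothalamus was lowest at 5.99 ± 0.14. The wave was 1.07-fold in brown adipose (1 to 1.13, adjusted p = 0.291) and 1.16-fold in white adipose (1 to 1.35, adjusted p = 0.52). Fat cell markers, averaged as described for kidney below, ran from 9.7 at CT46 to 10.17 at CT26 on the aorta arrays. On the adrenal arrays their mean reached 9.7 at CT32. The part of fat cell content in the Pparg levels of aorta and adrenal gland was not tested.

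In kidney, Pparg ran from 7.38 at CT28, with a median of 7.67, to 8.11 at CT40, a wave of 1.33-fold (1.19 to 1.49) with a peak at CT16.0 (adjusted p = 0.00105). Fat cell markers, the measured genes of the white (7 of 7) and brown adipocyte (6 of 6) lists averaged together, moved on the same arrays, from 6.73 at CT50 to 7.40 at CT40. With that mean in the model, a setting chosen after seeing the data, the kidney wave was 1.05-fold (adjusted p = 0.597). In bulk tissue, fewer cells of a type and less RNA per cell cannot be told apart.

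In skeletal muscle, Pparg ran from 7.95 at CT36, with a median of 8.19, to 9.14 at CT24, and the arrays around the fitted peak and trough overlapped. The wave was 1.48-fold (1.24 to 1.77), with a peak at CT23.3 (adjusted p = 0.0159). The adipocyte mean ran there from 8.22 at CT36 to 8.96 at CT24, the same arrays that were lowest and highest for Pparg. With that mean in the model the wave was 1.11-fold (adjusted p = 0.679), and without the arrays at CT22, CT24, CT42, CT44 and CT46, which stood apart by lymphocyte markers, it was 1.26-fold (adjusted p = 0.284). The part of fat cell content in these waves was not tested further.

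**Figure D4:**
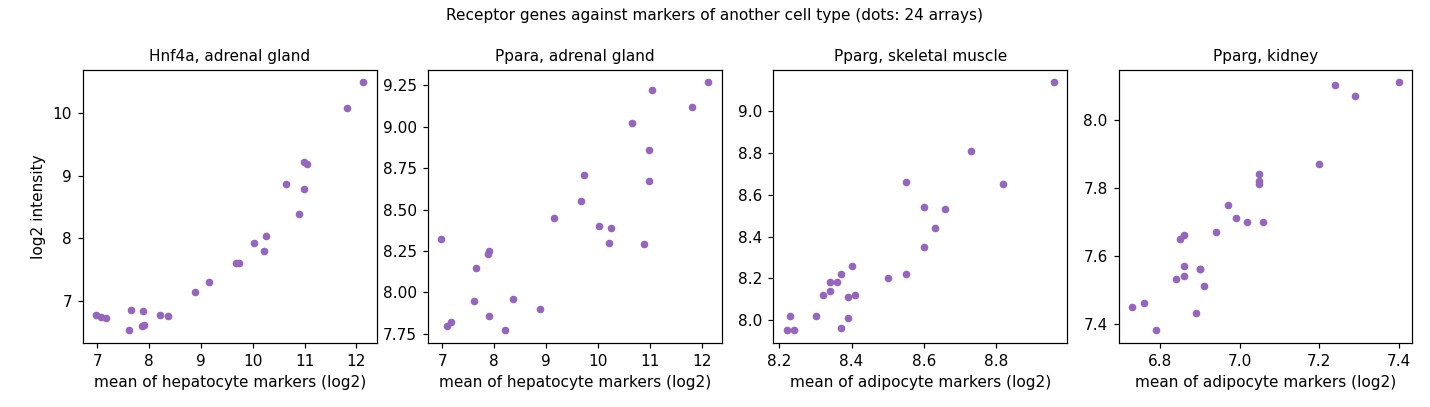
Log2 intensity of a receptor gene (vertical) against the mean of markers of another cell type on the same array (horizontal), 24 arrays per panel: Hnf4a and Ppara in adrenal gland against hepatocyte markers, Pparg in skeletal muscle and in kidney against adipocyte markers. In adrenal gland the array highest in hepatocyte markers (12.13) was also highest for Hnf4a (10.49), and in kidney the array highest in adipocyte markers (7.40) had the highest Pparg (8.11).

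Rxra (probe set 10470446, chr2:27676445-27763319) encodes RXR alpha, the shared partner of the PPARs and liver X receptors. It was highest in liver (11.20 ± 0.11), whose range lay above that of skeletal muscle (10.12 ± 0.11), and lowest in cerebellum (7.01 ± 0.068). Liver arrays ran from 10.99 at CT42, with a median of 11.18, to 11.37 at CT36. The liver wave was 1.18-fold (1.11 to 1.24), with a peak at CT9.01 (adjusted p = 0.000343), near the hour of Ppara in that tissue. In heart the wave was 1.17-fold with a peak at CT20.2 (adjusted p = 0.0189), from 8.51 at CT54, with a median of 8.80, to 8.95 at CT64. Brown adipose (1.14-fold, CT21.0, adjusted p = 0.0513) lay just past the threshold and passed it under 5 of the alternatives. Skeletal muscle markers on the brown adipose arrays ran from 6.43 at CT36 to 11.67 at CT44. With their mean in the model the brown adipose wave of Rxra did not pass. The part of muscle content in it was not tested further.

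Rxrg (probe set 10351430, chr1:167598362-167639623) encodes RXR gamma, an RXR of muscle and brain. It was highest in heart (10.73 ± 0.083) and skeletal muscle (10.67 ± 0.13), whose ranges overlapped and which lay above brown adipose (9.58 ± 0.17). Liver held an intermediate level (8.07 ± 0.29) and the largest wave of the gene, 1.53-fold (1.31 to 1.79), with a peak at CT22.4 (adjusted p = 0.000385). The liver arrays ran from 7.44 at CT58, with a median of 8.11, to 8.51 at CT28. The heart wave was 1.15-fold (1.11 to 1.20), with a peak at CT24.0 (adjusted p = 4.27e-05). In lung a wave of 1.19-fold was called with a peak at CT1.44 (adjusted p = 0.000258), at a mean of 5.36 ± 0.11, below the array medians, and a filter on low genes left it out there, so the probe set may not be above background in lung. The peaks in the 3 called tissues lay within the hours around the end of the active phase.

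Nr1h3 (probe set 10484987, chr2:91184061-91202829) encodes liver X receptor alpha, a sensor of oxysterols that governs cholesterol export and lipogenesis. It was called in 5 tissues. Its level was highest in liver (10.66 ± 0.13), whose range lay above white adipose (9.53 ± 0.23), and lowest in hypothalamus (6.04 ± 0.083). In liver the arrays ran from 10.44 at CT58, with a median of 10.67, to 10.88 at CT40, and those around the peak and around the trough did not overlap. The liver wave was 1.22-fold (1.14 to 1.30), with a peak at CT19.7 (adjusted p = 0.000171). Lung (1.17-fold, CT17.8) and kidney (1.09-fold, CT20.5) peaked at similar hours, and brown adipose (1.21-fold, CT12.9) and aorta (1.24-fold, CT9.94) earlier.

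Of these 5 waves of Nr1h3, 3 lost their call under some alternative. The brown adipose wave had an adjusted p of 0.058 with the mean of skeletal muscle markers in the model, markers whose mean ran from 6.434 to 11.67 over the brown adipose arrays. The kidney wave had 0.0526 without the array at CT54, which stood apart by pancreas markers, and 0.0887 after quantile normalization. The aorta wave had 0.0638 with the skeletal muscle marker mean, which ran from 6.181 to 10.06 there, 0.067 without the arrays at CT24 and CT60, 0.0636 over all probe sets and 0.104 on ranks.

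Esrra (probe set 10465485, chr19:6910977-6922048) encodes ERR alpha, a receptor without a known natural hormone that supports genes of mitochondrial energy production. It was called in 5 tissues, with peaks between CT8.73 and CT13.9. Brown adipose arrays ran from 8.08 at CT44, with a median of 8.42, to 8.62 at CT32, a wave of 1.26-fold (1.15 to 1.37) with a peak at CT9.32 (adjusted p = 0.00113). Liver arrays ran from 7.92 at CT50, with a median of 8.25, to 8.68 at CT62, a wave of 1.25-fold (1.13 to 1.39) with a peak at CT13.9 (adjusted p = 0.00446). White adipose (1.21-fold, CT13.9), aorta (1.31-fold, CT8.73) and kidney (1.12-fold, CT13.2) were also called. The aorta wave had an adjusted p of 0.0553 on ranks. The kidney wave had 0.111 with a straight line added, 0.0622 over all probe sets, 0.154 with the adipocyte marker mean in the model and 0.0545 with the hepatocyte mean. Mean levels of Esrra spanned 1.33 log2 units, from 8.53 ± 0.12 in heart to 7.20 ± 0.099 in adrenal gland. The ranges of all neighbouring tissues in that order overlapped, while those of heart (from 8.36) and adrenal gland (up to 7.34) did not.

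Hnf4a (probe set 10478389, chr2:163506811-163572907) encodes HNF4 alpha, a master regulator of hepatocyte genes. It was called in no tissue by limma, and 2 of its 12 waves had an unadjusted p under 0.05. Its level was 12.51 ± 0.091 in liver and 12.03 ± 0.076 in kidney, with ranges that did not overlap. These lay 4.29 log2 units above the next tissue. The wave was 1.08-fold in liver (1.01 to 1.16, adjusted p = 0.158) and 1.05-fold in kidney (1 to 1.11, adjusted p = 0.442). After quantile normalization within the tissue, the liver wave was 1.12-fold and passed (adjusted p = 0.0312).

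In adrenal gland Hnf4a ran from 6.53 at CT48, with a median of 7.45, to 10.49 at CT50, adjacent time points. The fitted wave was 3.37-fold (1.54 to 7.37, adjusted p = 0.126). Hepatocyte markers (8 of 9 measured) averaged between 6.98 at CT58 and 12.13 at CT50 on the adrenal arrays, and on the CT30 array, second for both, they averaged 11.82 with Hnf4a at 10.07. With that mean in the model, the Hnf4a wave was 1.53-fold (adjusted p = 0.209). The adrenal wave of Ppara was then 1.46-fold and kept its call (adjusted p = 0.0165), and those of Rxra and Nr1h3, at 1.44- and 1.30-fold before, were 1.30- and 1.16-fold. In heart, the highest Hnf4a value, 7.84 at CT26, was on the array that stood apart by hepatocyte markers. The source of these hepatocyte markers was not tested.

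Nr2f2 (probe set 10564527, chr7:70351946-70366746) encodes COUP-TFII, a receptor of veins, stroma and developing organs. Its level was highest in kidney (9.96 ± 0.082), lung (9.82 ± 0.078) and adrenal gland (9.70 ± 0.19), with overlapping ranges, and lowest in cerebellum (7.40 ± 0.070). White adipose arrays ran from 8.59 at CT26, with a median of 8.89, to 9.20 at CT62. The wave there, 1.24-fold (1.14 to 1.35) with a peak at CT12.2 (adjusted p = 0.0063), was the only call. Brown adipose (1.18-fold, CT11.8, adjusted p = 0.0577), brainstem (1.09-fold, CT12.0, adjusted p = 0.096) and heart (1.14-fold, CT14.3, adjusted p = 0.0925) did not pass, and passed with array weights or quantile normalization within the tissue.

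**Figure D5:**
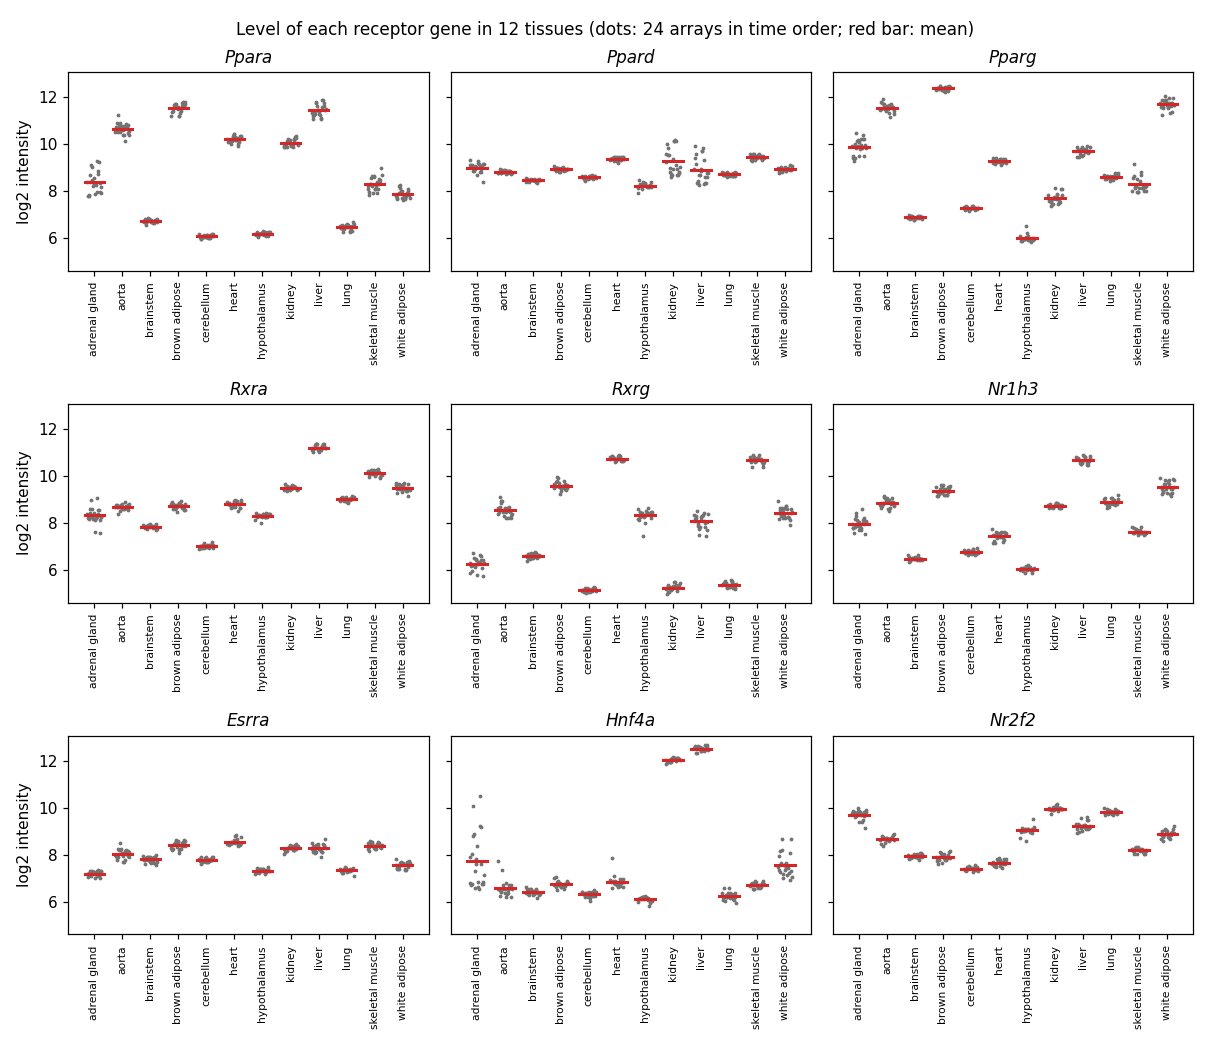
Log2 intensity of each receptor gene in the 12 tissues: dots are the 24 arrays of a tissue in time order and the red bar is their mean. Pparg was highest in brown adipose (12.36), Hnf4a in liver (12.51) and kidney (12.03), and the wide columns of Ppard in kidney and liver are its daily waves.

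When all 288 arrays were quantile normalized together, the highest tissue stayed the same for Ppara, Ppard, Pparg, Rxra and Nr1h3. It became brown adipose for Esrra, kidney for Hnf4a (11.81 against 11.57 in liver), adrenal gland for Nr2f2 and skeletal muscle for Rxrg. No tissue moved by more than 3 places for any of the 9 genes. Levels of one gene were not set against those of another, since probe sets differ in brightness.

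Whether the waves of a gene differed between tissues was tested in 1 fit to all arrays, which shares an estimate of spread over the tissues. All 9 genes passed the limma test over the 12 tissues, as did 49.6% of all genes, from an adjusted p of 4.28e-52 for Ppard to 0.0152 for Nr2f2. For Hnf4a (adjusted p = 3.2e-05) the call was lost on ranks (0.546). The SD of Hnf4a was 1.2 in adrenal gland, where hepatocyte markers varied, and 0.091 in liver, while the fit uses 1 spread for all tissues. The part of the adrenal arrays in this call was not tested. For these tests ranks were taken within each gene and tissue, so a gene's spread was the same in every tissue. They thus remove much of a difference in the size of a wave.

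Liver and kidney differed for 2 of the 9 genes (15.6% of all genes differed), Ppard (adjusted p = 0.000104) and Rxrg (0.00275), and on ranks for neither. The Rxrg wave was 1.53-fold in liver and 1.07-fold (1 to 1.19) in kidney. The kidney mean of Rxrg was 5.25 ± 0.13, below the array medians, so the probe set may not be above background there. Brown and white adipose differed for 2 (18.6%), Esrra (0.00321), which peaked at CT9.32 and CT13.9, and Rxrg (0.00605), which was called in neither, and on ranks for neither (0.187 and 0.161). Heart and skeletal muscle differed for 2 (6.75%), Pparg (0.000564) and Esrra (0.00335), and for neither without the arrays that stood apart (0.211 and 0.136). Liver and brown adipose differed for 6 (24.6%): Ppard (5.01e-24), Rxrg (2.84e-05), Esrra (0.000566), Rxra (0.00081), Nr1h3 (0.0025) and Nr2f2 (0.049). On ranks Ppard (0.233) and Nr2f2 (0.202) did not pass, and Nr2f2 did not with array weights (0.0576). The Ppard waves were 2.48-fold in liver and 1.04-fold in brown adipose, and why the call was lost on ranks was not tested. Ppara, called in both of these tissues, did not pass there (0.173), nor between liver and kidney (0.424) or brown and white adipose (0.897).

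The genes whose profile was most like each receptor were ranked by Pearson r over the 288 arrays after each tissue's mean was subtracted, which is a description. Arrays share cell content, and the r within single tissues varied widely. For Ppard they were Lgalsl (r = 0.64) and Ypel2 (0.63). Lgalsl had waves of 2.98-fold in liver (CT21.5) and 1.29-fold in kidney (CT21.8), and Ypel2 of 3.51-fold (CT22.0) and 2.83-fold (CT21.1). For Ppara they were Ephx2, a soluble epoxide hydrolase (0.63), and Met (0.61). For Pparg they were Slc36a2 (0.66) and Aoc3 (0.66), which in skeletal muscle had waves of 1.39-fold (CT22.3) and 1.87-fold (CT22.6).

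The most alike genes of Hnf4a had by far the highest r, Cfi (0.93), a complement factor, and Proc (0.92), protein C, both secreted by the liver. For Rxra they were C2cd2 (0.65) and Gstz1 (0.62), and for Rxrg Isoc1 (0.62) and Plin2 (0.61). For Nr1h3 they were Acad11 (0.65) and Mlxipl (0.63), which encodes the glucose-responsive factor ChREBP and peaked in liver at CT22.2 (1.17-fold). For Esrra they were Mcrip2 (0.65) and Oplah (0.59), and for Nr2f2 Paf1 (0.53) and Atn1 (0.53).

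Genes that the receptors are known to act on or with were counted the same way, beside the 11% and the median of 1.07-fold of all pairs of a gene and a tissue. Of the PPAR alpha target genes 66 of 276 pairs (23.9%) were called, and of the PPAR gamma target genes 60 of 204 (29.4%), each with a median fold of 1.11. In liver, where Ppara peaked at CT10.1, 11 of 23 PPAR alpha targets were called, beside 26.8% of all genes there, and their peaks were spread around the day. Cpt1a, which admits fatty acids to mitochondria, peaked there at CT9.26 (1.51-fold, adjusted p = 1.46e-09) and Fabp1 at CT9.86 (1.10-fold). Vnn1 peaked at CT7.81, Angptl4 at CT7.91 and Pex11a at CT13.4. Cpt2 (CT19.5), Acot1 (CT19.9), Acot2 (CT0.378) and Plin2 (CT0.46) peaked at about the opposite time, and Cyp4a14 at CT4.01. Pdk4, an inhibitor of pyruvate oxidation, peaked at CT21.8 (5.33-fold, adjusted p = 1.78e-07), near the hour of Ppard. Pdk4 was called in 8 tissues, at CT20.7 in kidney and between CT3.81 and CT5.11 in the other 6.

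Angptl4, an inhibitor of lipoprotein lipase, was called in 8 tissues, as was Cpt1a. The largest wave of Angptl4 was in brown adipose (2.37-fold, CT2.48). Of the PPAR gamma targets in kidney, 10 of 17 were called, beside 25.8% of all genes there. They included the fat cell genes Adipoq (2.12-fold, CT16.5), Cidec (2.07-fold, CT15.3) and Plin1 (1.71-fold, CT16.1), at the hour of kidney Pparg and on the arrays with high adipocyte markers. In skeletal muscle 5 of 17 were called, beside 5.12% of all genes, among them Adipoq (3.26-fold, CT22.4) and Plin1 (2.35-fold, CT22.6), on arrays over which the adipocyte mean ran from 8.22 to 8.96. Plin4 was called in 8 tissues, and Aqp7, a glycerol channel, in 6, as were Lipe and Dgat1.

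Of the LXR target genes 44 of 180 pairs (24.4%) were called, with a median fold of 1.11, and 29 on ranks. Fasn, the fatty acid synthase, was called in 6 tissues, and Mylip and Abca1 in 5 each. Fasn peaked in liver at CT16.2 (1.76-fold), before Nr1h3 at CT19.7, and its largest wave was in skeletal muscle (3.78-fold, CT21.7). On the muscle arrays the adipocyte mean ran from 8.22 at CT36 to 8.96 at CT24. The part of fat cell content in the muscle wave of Fasn was not tested. Of the ERR target genes 21 of 228 (9.21%, median 1.05-fold) were called and of the HNF4 alpha target genes 15 of 216 (6.94%, median 1.10-fold), shares near or below that of all pairs. Idh3a, Uqcrc1 and Ndufa4, mitochondrial genes, were each called in 3 tissues, and Cyp27a1 and Mttp in 2. In liver 10 of 18 HNF4 alpha targets were called, beside 26.8% of all genes, with Cyp8b1, a bile acid enzyme, at 1.73-fold (CT0.0243), while Hnf4a itself was not, other than after quantile normalization (adjusted p = 0.0312).

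Coregulators were called in 41 of 180 pairs (22.8%, median 1.07-fold). Lpin1, a phosphatase that also assists PPAR alpha, was called in 8 tissues, in liver at 3.30-fold with a peak at CT11.3. Ppargc1a, the coactivator PGC-1 alpha that works with ERR alpha, was called in 5, as were Ppargc1b, Nrip1 and Ncoa3. In brown adipose Ppargc1a peaked at CT7.73 (2.02-fold) and in aorta at CT6.38 (2.05-fold), where Esrra peaked at CT9.32 and CT8.73. Its other called peaks were at CT6.93 in adrenal gland, CT3.46 in lung and CT17.6 in heart, where Esrra was not called. In liver, kidney and white adipose Esrra was called and Ppargc1a was not. Other nuclear receptors were called in 92 of 420 pairs (21.9%, median 1.08-fold), and Nr1d1 and Nr1d2, the REV-ERB repressors of the clock, in all 12 tissues. The Nr1d1 wave was 18.4-fold in liver and 9.45-fold in kidney, where that of Ppard was 2.48- and 2.68-fold.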

How the data were processed

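The authors worked with GCRMA and with Affymetrix Expression Console, per the submitters' processing notes. Versions and the order of steps are not given in the sources used here. The deposited unit is intensity, 1 linear value per probe set and array, and log2 was taken here without a pseudocount. Log2 input had been assumed when the tests were planned. Of 35556 probe sets, 21789 with 1 symbol gave 19938 genes, the brightest probe set standing for a gene with several. limma 3.58.1 (R 4.3.3) fitted cosine and sine of 24 h per tissue, with a moderated F test of both terms together. Its steps were tested on simulated data. Fold intervals are 95%, and precision is limited by how many arrays there are. Genes named beside the 9 receptors are, per list, the 2 called in the most tissues (ties went to the larger mean wave, which left out Cpt1a, Lipe, Dgat1, Abca1, Ndufa4, Ppargc1b, Nrip1 and Ncoa3), and, per receptor, the 2 of highest r. The PPAR alpha targets Cpt1a, Cpt2, Acot1, Acot2, Plin2, Cyp4a14, Fabp1, Vnn1 and Pex11a were chosen after their values were seen. So were Adipoq, Cidec, Plin1, Lipe, Dgat1, Abca1, Ndufa4, Ppargc1b, Nrip1, Ncoa3 and Cyp8b1. The receptors and lists were chosen with earlier results of these data known. Arrays apart differed from the tissue median by over 5 scaled deviations and 1 log2 unit in a marker mean, or by 5 and 0.003 in correlation. Positions and promoters come from RefSeq (GRCm38.p6).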

Additional observations from a re-analysis of the deposited data

Results flagged for a closer look

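The daily waves of all 9 receptor genes differed between the 12 tissues by limma's test of the interaction of tissue and wave. So did those of 49.6% of all genes. The adjusted p was 4.28e-52 for Ppard, 1.35e-14 for Ppara, 1.31e-09 for Esrra and 5.36e-09 for Pparg. It was 3.21e-08 for Nr1h3, 4.43e-08 for Rxra, 1.06e-05 for Rxrg, 3.2e-05 for Hnf4a and 0.0152 for Nr2f2. The Hnf4a call used a spread shared over tissues of unlike scatter and was lost on ranks. Between single tissues the adjusted p is given for the genes that passed. Between liver and kidney the adjusted p was 0.000104 for Ppard and 0.00275 for Rxrg (15.6% of all genes differed). Between brown and white adipose it was 0.00321 for Esrra and 0.00605 for Rxrg (18.6% of all genes). Between heart and skeletal muscle it was 0.000564 for Pparg and 0.00335 for Esrra (6.75% of all genes). Between liver and brown adipose (24.6% of all genes) it was 5.01e-24 for Ppard, 2.84e-05 for Rxrg and 0.000566 for Esrra. For Rxra it was 0.00081, for Nr1h3 0.0025 and for Nr2f2 0.049. As given above, several of these calls were lost on ranks, without the arrays that stood apart or with array weights.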

How the results depend on the processing

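Of the 27 called waves, 20 kept their call under each of the 12 alternatives that could be computed for them on both days together, among them ranks, added waves or trends, array weights, quantile normalization, marker means and the omission of arrays that stood apart. The 7 others were Pparg in kidney and skeletal muscle, Nr1h3 in aorta, brown adipose and kidney, and Esrra in aorta and kidney. No wave was reversed. The first 24 h alone gave 9 calls and the second 12, from 12 arrays each. Array weights gave 12 further calls. The LXR list had 29 calls on ranks in place of 44. Between liver and kidney, 4 genes differed without the arrays that stood apart, 0 on ranks, 1 after quantile normalization of all arrays and 5 with array weights. Between brown and white adipose, 0 differed on ranks. Between heart and skeletal muscle, 0 differed without the arrays apart, 1 on ranks and 5 with array weights. The causes were not tested. Time points are shared by tissues. The mean r of deviations was 0.039 for arrays of 1 time point and -0.0015 for arrays of other time points. It was above 0.1 in 8 of 66 pairs of tissues, and the r of single pairs of arrays of 1 time point was in 529 of 1584. With the time point as a replicate block, 9 genes differed over the 12 tissues, 3 between liver and kidney, 2 between brown and white adipose, 2 between heart and skeletal muscle and 6 between liver and brown adipose. Each receptor had 1 probe set, so no other could be tried. The 2 settings with hepatocyte or adipocyte means were chosen after seeing the data.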
